A study of Mus musculus with 24 samples.

Results

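The genes described here are 9 genes of fibroblast activation and TGF-beta signalling, chosen by name from the 56941 genes in the count table of mouse kidney: Tgfb1, Tgfbr2, Acta2, Pdgfrb, Vim, Fn1, Dcn, Lox and Timp1. All 9 were found by gene identifier, and 8 of them passed the filter on low counts. Male wild-type C57BL/6 J mice, 8 to 11 weeks old at surgery, had their left anterior descending coronary artery tied for good to cause myocardial infarction (MI), or had sham surgery in which it was not tied. RNA of frozen kidney tissue was read at its 3′ ends by MACE, and counts could be assigned to 8 sham kidneys, 8 kidneys taken 5d post-MI (the 5d kidneys) and 6 taken 28d post-MI (the 28d kidneys). Whether whole kidneys or pieces were used for RNA was not given in the sources used here. Sham kidneys were taken 5d after surgery and serve as the control for both times, so that at 28d the infarction, the time since surgery and the older age of the mice cannot be told apart. Both comparisons with sham share these kidneys and are not independent of each other.

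TGF-beta is secreted in a latent form, is released from it outside the cell, and signals through a pair of receptors that phosphorylate SMAD proteins in the cytoplasm. In kidney disease it is known as a main inducer of the myofibroblast, a contractile cell that arises from fibroblasts and pericytes and lays down collagen and fibronectin. Healthy kidney holds few such cells, and most of its smooth muscle actin RNA comes from the walls of arteries and arterioles.

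None of the 8 tested members passed the test against sham at either time, and Timp1 was not tested. A gene was called when its adjusted p-value (edgeR quasi-likelihood test, Benjamini-Hochberg adjustment over the 12780 genes tested) was under 0.05. In the 5d kidneys 0 of 8 tested members were called, beside 0.0704% of all genes tested, and in the 28d kidneys 0 of 8, beside 0.0235%. DESeq2 also called 0 members at both times. At 28d it gave no adjusted p for Tgfb1, Pdgfrb, Vim, Fn1 and Lox, which therefore could not be called there. At an unadjusted p under 0.05 there were 2 members in the 5d kidneys, Pdgfrb and Acta2, beside 7.9% of all genes tested, and 2 in the 28d kidneys, Acta2 and Dcn, beside 8.68%. DESeq2 had the same 2 members at that threshold at each time. All of these were lower than in sham kidneys. Genes lower than sham at an unadjusted p under 0.05 made up 3.97% of all genes tested in the 5d kidneys and 4.23% in the 28d kidneys.

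The members' estimates lay mostly below sham. At each time 7 of 8 tested members had a log2 fold change under 0, with a median of −0.17 in the 5d kidneys and −0.13 in the 28d kidneys, while the median over all genes tested was 0.00018 and −0.0012. These members include genes of the same cell types, so their directions do not count as separate observations.

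**Figure D1:**
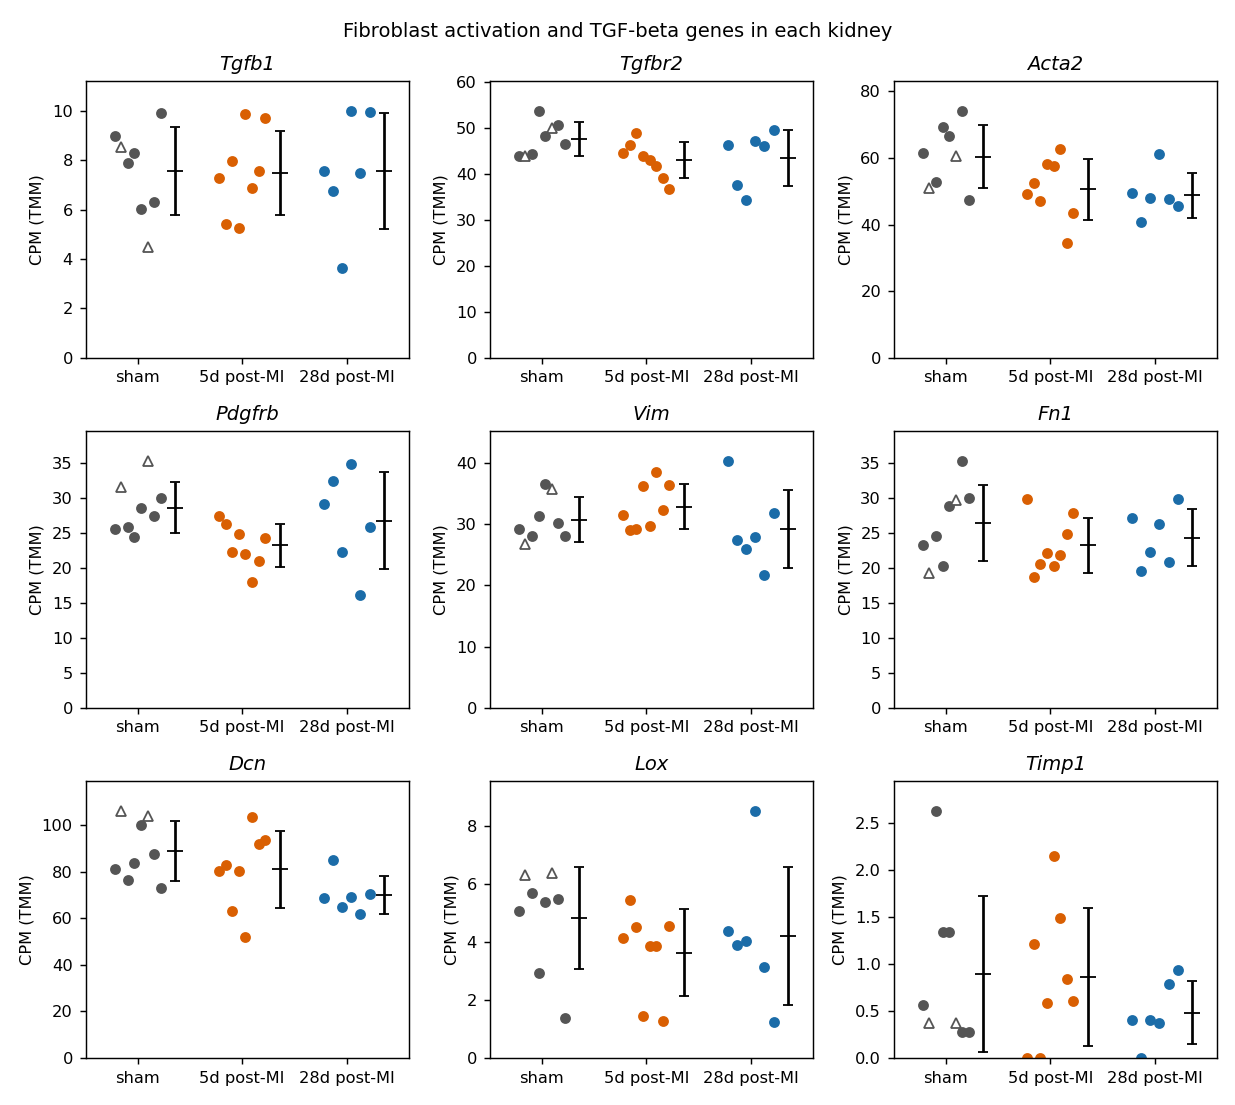
Level of each of the 9 genes in every kidney, in counts-per-million after TMM normalization (CPM, y axis, from 0), by group (x axis: 8 sham, 8 5d and 6 28d kidneys). Points are kidneys, open triangles are the 2 sham kidneys with high adrenal cortex markers, and the bar is the mean with 1 SD. The groups overlap for every gene, and 5 of 6 28d kidneys lie below all sham kidneys for Dcn.

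Every kidney carried its tissue's RNA, since proximal tubule markers summed to 5390 CPM or more in each (CPM, counts-per-million after TMM normalization), although the proximal glucose transporter gene Slc5a2 had only 0 to 3 counts per kidney. Total counts were between 2280618 and 3786275 per kidney. Sham replicates 2 and 6 stood apart with 967 and 720 CPM of 7 adrenal cortex markers, of which Cyp11b2 had no count in any kidney, while the other kidneys had at most 84.6 CPM. Results of members that rest on this pair are given with and without it, and listed genes whose unadjusted p was under 0.05 only with it are named as such. In RNA of tissue that holds many cell types, fewer cells of a type and less RNA per cell cannot be told apart.

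Tgfb1 encodes the ligand itself. It was read 9 to 36 times per kidney and had 4.51 to 9.91 CPM (median 8.10) in sham kidneys, 5.25 to 9.89 CPM (median 7.42) in 5d kidneys and 3.64 to 10.02 CPM (median 7.54) in 28d kidneys. The groups covered nearly the same span, with 2 of the 28d kidneys just above all sham kidneys and 1 below them. Its log2 fold change against sham was −0.04 in the 5d kidneys (95% interval −0.41 to 0.32, adjusted p = 0.976 by edgeR) and 0.0045 in the 28d kidneys (95% interval −0.40 to 0.41, adjusted p = 0.999 by edgeR). Counting error alone gives Tgfb1 a CV of 21.1%, close to the observed 23.7% among sham, 22.9% among 5d and 31.2% among 28d kidneys. Differences inside these intervals were not detectable at this depth.

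Tgfbr2 encodes the receptor that binds the ligand first and recruits TGFBR1. It had 43.9 to 53.8 CPM (median 47.5) in sham kidneys, 36.7 to 49.0 CPM (median 43.5) in 5d kidneys and 34.3 to 49.5 CPM (median 46.2) in 28d kidneys. Below all sham kidneys lay 4 of 8 5d kidneys and 2 of 6 28d kidneys, and no kidney after MI lay above the sham range. Its log2 fold change was −0.15 in the 5d kidneys (95% interval −0.30 to 0.0051, adjusted p = 0.647 by edgeR) and −0.13 in the 28d kidneys (95% interval −0.30 to 0.04, adjusted p = 0.698 by edgeR). A two-sided exact permutation test over the kidneys gave p = 0.0283 at 5d and p = 0.151 at 28d. At 5d the unadjusted p was 0.0577 by edgeR, and it was under 0.05 in 6 of 22 fits that each left out 1 kidney. Of the tested members Tgfbr2 had the smallest standard error at both times, 0.08 on the log2 scale.

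Acta2, the smooth muscle actin by which myofibroblasts are recognized, had lower estimates than sham at both times. It ranged from 47.4 to 74.2 CPM (median 61.0) among sham kidneys, from 34.5 to 62.7 CPM (median 50.9) among 5d kidneys and from 40.9 to 61.2 CPM (median 47.9) among 28d kidneys. Against the sham mean of 60.4 ± 9.48 CPM (SD, n = 8), 7 of 8 5d kidneys (mean 50.6 ± 9.14) and 5 of 6 28d kidneys (mean 48.8 ± 6.79) were lower, with 3 and 2 of them below all sham kidneys. The log2 fold change was −0.26 in the 5d kidneys (SE 0.11, adjusted p = 0.549 by edgeR) and −0.32 in the 28d kidneys (SE 0.12, adjusted p = 0.408 by edgeR), that is 16.2% and 19.6% lower. A two-sided exact permutation test over the kidneys gave p = 0.0573 and p = 0.0226. Without the 2 sham kidneys high in adrenal markers the log2 fold changes were −0.29 and −0.35, and the unadjusted p stayed under 0.05 at both times.

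Immediate early genes are transcription factor genes such as Fos and Egr1 that respond within minutes to stress or tissue handling, and their levels are set beside those of Acta2 here. The 9 genes of this list summed to 571 to 1174 CPM in sham kidneys, 69.5 to 570 CPM in 5d kidneys and 766 to 1946 CPM in 28d kidneys, with all 8 tested genes below sham in the 5d kidneys at an unadjusted p under 0.05. The score of a marker list, here and below, is the mean log2 CPM of its genes, each weighted alike, and not this sum. With group means removed, the correlation of Acta2 with the score of this list over 22 kidneys did not pass the adjustment, at Pearson r = 0.574 (permutation p = 0.0112, adjusted p = 0.223 over 80 relations of a member with a marker list) and Spearman rho = 0.626 (permutation p = 0.00345, adjusted p = 0.138). Without the 2 kidneys farthest from the median score r was 0.810. With that score as a covariate the log2 fold change of Acta2 turned to 0.080 in the 5d kidneys (adjusted p = 0.999 by edgeR), and in the 28d kidneys it was −0.42 (adjusted p = 0.0915 by edgeR). The sums of the 5d kidneys all lay below those of both other groups. Since the score is built from the same genes, group and score are hard to tell apart in such a fit. It called 0 of 12780 genes in the 5d kidneys against sham and 0 between the times, in place of 9 and 53. At an unadjusted p under 0.05 it had 539 genes in the 5d kidneys, in place of 1009.

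Pdgfrb encodes the PDGF receptor of pericytes, mesangial cells and fibroblasts. It had 24.4 to 35.3 CPM (median 28.0) in sham kidneys, 17.9 to 27.4 CPM (median 23.3) in 5d kidneys and 16.2 to 34.9 CPM (median 27.5) in 28d kidneys. Each of the 8 5d kidneys was under the sham mean and 5 were under all sham kidneys, whereas the 28d kidneys spread over the ranges of both other groups. The log2 fold change was −0.29 in the 5d kidneys (SE 0.11, adjusted p = 0.501 by edgeR) and −0.09 in the 28d kidneys (SE 0.12, adjusted p = 0.901 by edgeR). The exact permutation test gave p = 0.00528 and p = 0.462.

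Sham replicates 2 and 6, high in adrenal markers, had the highest Pdgfrb of their group, 31.6 and 35.3 CPM, against 27.0 ± 2.09 CPM (SD, n = 6) in the other sham kidneys. Without them the log2 fold change in the 5d kidneys was −0.21 (adjusted p = 0.826 by edgeR), and its unadjusted p was no longer under 0.05. With the adrenal score as a covariate it was −0.24, and the unadjusted p stayed under 0.05. With the immediate early score it was −0.23 (unadjusted p = 0.196 by edgeR), in the fit where group and score are hard to tell apart.

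Vim encodes vimentin, the intermediate filament protein of mesenchymal cells, which podocytes and endothelium also express. It had 26.8 to 36.6 CPM (median 29.7) in sham kidneys, 29.0 to 38.5 CPM (median 31.9) in 5d kidneys and 21.7 to 40.3 CPM (median 27.6) in 28d kidneys. The 28d kidneys spread widest, with 1 above and 2 below the sham range, and 1 5d kidney lay above it. Vim was the 1 member with a higher estimate in the 5d kidneys, by a log2 fold change of 0.10 (SE 0.10, adjusted p = 0.865 by edgeR). With the immediate early score as a covariate that value was 0.35 (adjusted p = 0.999 by edgeR), and with the score of white adipocyte markers 0.20 (adjusted p = 0.759 by edgeR), both with an unadjusted p under 0.05. The correlations of Vim with these scores did not pass the adjustment over 80 relations, at Pearson r = 0.460 and rho = 0.496 for the first (permutation p = 0.0261 and p = 0.0283, adjusted p = 0.348 and 0.270, r = 0.516 without the 2 farthest kidneys). For the second they were r = 0.526 and rho = 0.568 (permutation p = 0.00628 and p = 0.00814, adjusted p = 0.223 and 0.163, r = 0.521 without the 2 farthest kidneys). In the 28d kidneys Vim had −0.08 (SE 0.11, adjusted p = 0.901 by edgeR), which turned to 0.044 with the adipocyte score as a covariate.

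Fn1 encodes fibronectin, the matrix glycoprotein on which collagen fibres assemble. It had 19.3 to 35.3 CPM (median 26.7) in sham kidneys, 18.7 to 29.8 CPM (median 21.99) in 5d kidneys and 19.6 to 29.9 CPM (median 24.3) in 28d kidneys. A single 5d kidney, and no 28d kidney, lay outside the range of the sham kidneys. The log2 fold change was −0.19 in the 5d kidneys (95% interval −0.43 to 0.05, adjusted p = 0.728 by edgeR) and −0.12 in the 28d kidneys (95% interval −0.38 to 0.14, adjusted p = 0.865 by edgeR).

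Dcn encodes decorin, a small proteoglycan of fibroblasts that coats collagen fibrils and binds TGF-beta. It ranged from 73.0 to 106 CPM (median 85.6) among sham kidneys, from 52.1 to 103 CPM (median 81.5) among 5d kidneys and from 61.9 to 85.0 CPM (median 68.9) among 28d kidneys. All 6 28d kidneys (mean 69.9 ± 8.02) lay under the sham mean of 88.9 ± 12.7 CPM (SD, n = 8) and 5 of them under all sham kidneys, while 2 of 8 5d kidneys did so. The log2 fold change was −0.34 in the 28d kidneys (SE 0.12, adjusted p = 0.416 by edgeR), or 21.1% lower, and −0.13 in the 5d kidneys (SE 0.11, adjusted p = 0.849 by edgeR). The exact permutation test gave p = 0.00599 for the 28d kidneys and p = 0.288 for the 5d kidneys.

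Dcn is also expressed by the stroma of fat, so the markers of white adipocytes are given beside it. These 8 markers, each read in at least 1 kidney, summed to 409 to 2017 CPM (median 1196) in sham kidneys, 206 to 1472 CPM (median 1073) in 5d kidneys and 402 to 1008 CPM (median 559) in 28d kidneys. All 7 tested markers had lower estimates than sham at both times, and 5 of 7 had an unadjusted p under 0.05 in the 28d kidneys. The sums of 28d and sham kidneys differed at p = 0.0187 by the exact permutation test (adjusted p = 0.0699 over 30 such tests). With group means removed, the correlation of Dcn with the adipocyte score over 22 kidneys did not pass the adjustment, at Pearson r = 0.708 (permutation p = 0.00144, adjusted p = 0.115 over 80 relations) and Spearman rho = 0.614 (permutation p = 0.00530, adjusted p = 0.141). Without the 2 kidneys farthest from the median score r was 0.512.

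With the adipocyte score as a covariate the log2 fold change of Dcn in the 28d kidneys was −0.15 (adjusted p = 0.813 by edgeR). The 2 sham kidneys high in adrenal markers also had the highest Dcn of their group, 106 and 104 CPM, against a mean of 83.5 CPM in the other 6. Without them the log2 fold change was −0.26 in the 28d kidneys (adjusted p = 0.714 by edgeR). In neither of these fits was the unadjusted p under 0.05, whereas with the adrenal score as a covariate (−0.27) it was.

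**Figure D2:**
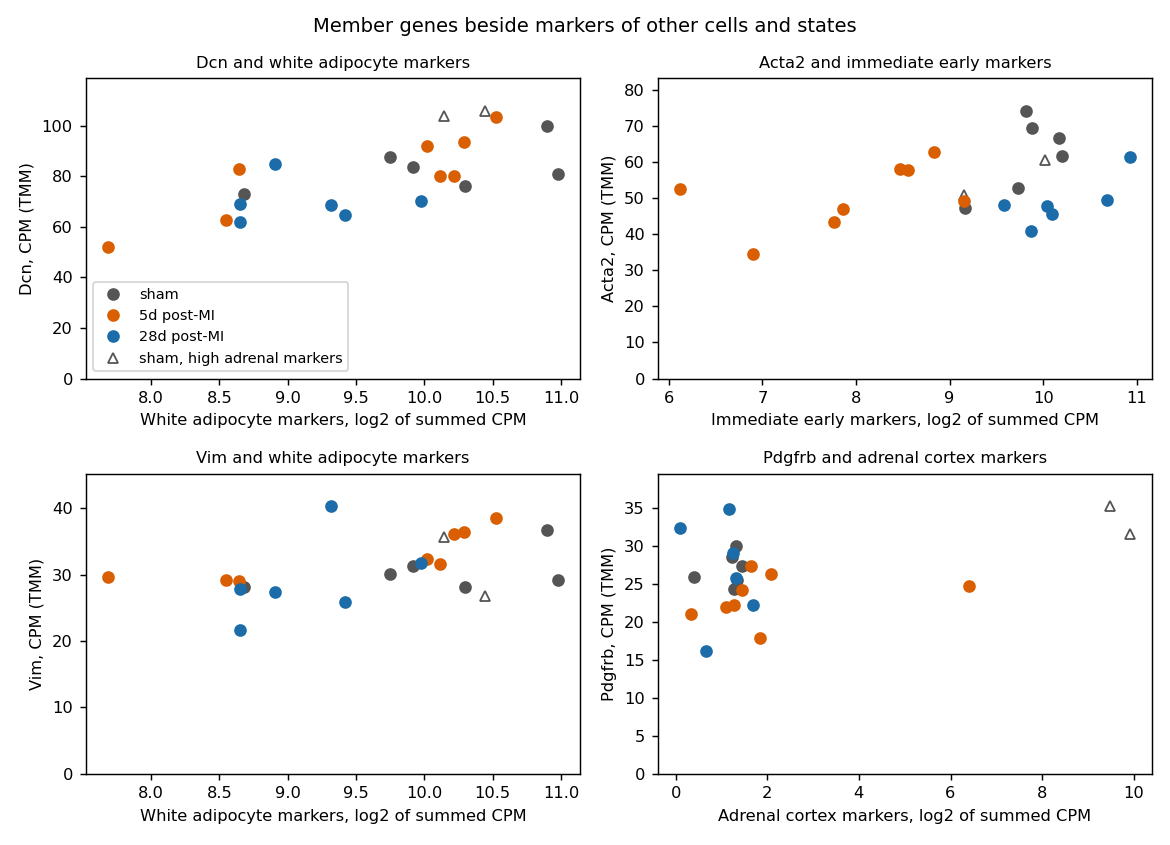
Dcn, Acta2, Vim and Pdgfrb (y axes, CPM after TMM normalization, from 0) against the log2 of the summed CPM of marker lists (x axes) in 22 kidneys, coloured by group, with open triangles for the 2 sham kidneys high in adrenal markers. The r of 0.708 for Dcn and white adipocyte markers (permutation adjusted p = 0.115) is not that of the plotted axes. It was taken from log2 CPM of Dcn and the mean log2 CPM of the markers, with group means removed. The 5d kidneys lie at the low end of immediate early genes, and the 2 triangles stand apart on the adrenal axis with the highest Pdgfrb of the sham group.

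Lox encodes the lysyl oxidase that crosslinks collagen and elastin. It was read 3 to 23 times per kidney and had 1.38 to 6.39 CPM (median 5.43) in sham kidneys, 1.26 to 5.44 CPM (median 4.02) in 5d kidneys and 1.25 to 8.54 CPM (median 3.98) in 28d kidneys. The groups overlapped over nearly their whole span, with 1 28d kidney above all the others. Its log2 fold change had the widest 95% intervals of the tested members, −0.97 to 0.27 around −0.35 in the 5d kidneys (adjusted p = 0.842 by edgeR) and −0.85 to 0.49 around −0.18 in the 28d kidneys (adjusted p = 0.933 by edgeR). Without the 2 sham kidneys high in adrenal markers, where Lox was 6.32 and 6.39 CPM, these values were −0.19 and −0.024.

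Timp1 encodes an inhibitor of matrix metalloproteinases that is known to rise in injured kidney. It was read 0 to 6 times per kidney, below the filter, and so was not tested in the main fit. Summed over a group it had 21 counts in sham, 20 in 5d and 8 in 28d kidneys, or 0.843, 0.842 and 0.485 counts-per-million of the summed totals. The exact Poisson 95% intervals, which cover counting error only, were 0.522 to 1.29, 0.514 to 1.30 and 0.209 to 0.955, and overlapped. Without the filter on low counts edgeR gave Timp1 a log2 fold change against sham of 0.00047 in the 5d kidneys and −0.74 in the 28d kidneys (adjusted p = 0.754). A rise or fall of Timp1 was not detectable at this depth.

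**Figure D3:**
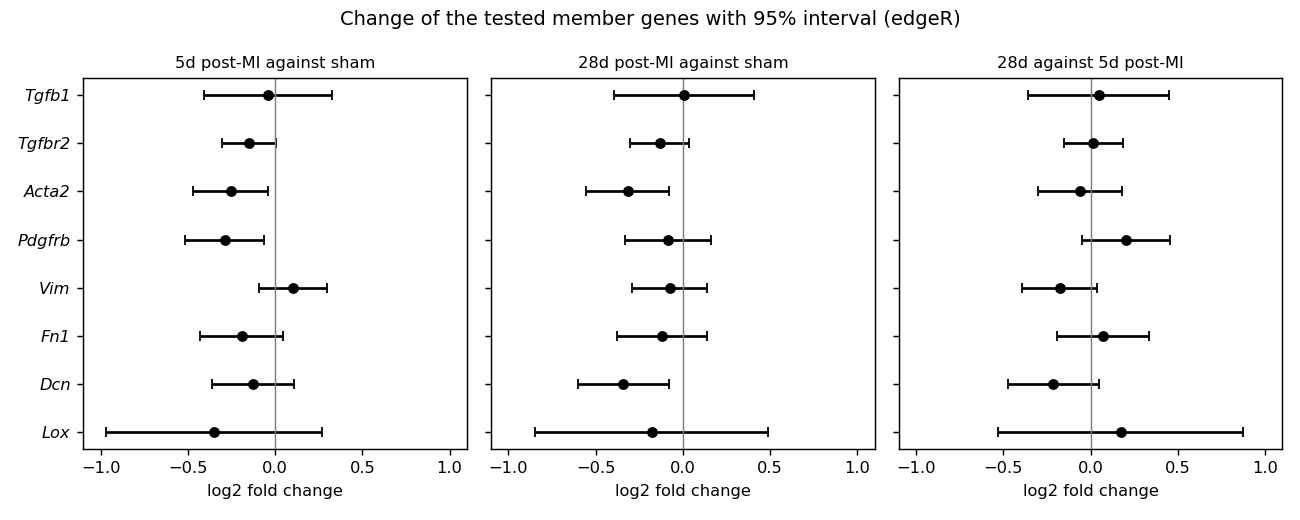
Log2 fold change (x axis) of the 8 tested members (y axis) with 95% interval by edgeR, in panels for the 5d kidneys and the 28d kidneys, which share the sham kidneys, and for the later against the earlier time. Estimates against sham lie between −0.35 and 0.10 in the 5d kidneys and between −0.34 and 0.0045 in the 28d kidneys, and the widest intervals are those of Lox.

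Between the 28d and 5d kidneys 0 of 8 tested members were called, beside 0.415% of all genes tested, and 0 had an unadjusted p under 0.05, beside 9.05%. The members nearest to that threshold were Dcn (log2 fold change −0.21, adjusted p = 0.657), Vim (−0.18, adjusted p = 0.661) and Pdgfrb (0.21, adjusted p = 0.665), all by edgeR. For Pdgfrb, 3 of 6 28d kidneys lay above all 5d kidneys and 1 lay below them. For Acta2 the log2 fold change between the times was −0.06, with a 95% interval from −0.30 to 0.18. With the immediate early score as a covariate the values between the times were −0.50 for Acta2 (adjusted p = 0.465 by edgeR) and −0.51 for Vim (adjusted p = 0.470 by edgeR), each with an unadjusted p under 0.05.

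Around the members, 146 further genes of TGF-beta signalling, fibroblasts, contractile cells and matrix were listed, of which 123 were tested and 0 were called against sham at either time. In the 5d kidneys 91 of 123 had a lower estimate than sham, and at an unadjusted p under 0.05 there were 6 higher, beside 3.92% of all genes tested, and 14 lower, beside 3.97%. In the 28d kidneys 76 of 123 had a lower estimate, and 6 were higher, beside 4.45%, and 12 lower, beside 4.23%. Between the times 15 were higher in the 28d kidneys, beside 5.03%, and 4 lower, beside 4.01%, and 2 genes were called, Junb and Ren1. Without the 2 sham kidneys high in adrenal markers the counts at that threshold were 4 higher and 7 lower in the 5d kidneys, and 5 higher and 13 lower in the 28d kidneys. Of all 12751 genes in that fit, 784 at 5d and 893 at 28d were under it in either direction. Without TMM factors the counts of listed genes were 5 and 17 at 5d, and 5 and 20 at 28d. Of all 12780 genes, 1011 and 1223 were under it in either direction there. As to direction alone, 50.1% of all genes tested at 5d and 49.6% at 28d had a higher estimate than sham. Of the 123 listed genes, 69 at 5d and 79 at 28d were lower with the immediate early score as a covariate, and 92 and 88 without TMM factors. Many of these genes share cell types, so their directions do not count as separate observations.

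Of the genes that hold, cleave and release the ligand, Tgfb1 included, 10 of 14 were tested. The integrin subunit gene Itgav, whose product takes part in activating latent TGF-beta, was the 1 gene of the list at an unadjusted p under 0.05 in the 5d kidneys, with a mean of 113 ± 9.94 CPM (SD, n = 8) against 100 ± 4.95 CPM (SD, n = 8) in sham kidneys. Its log2 fold change was 0.17 (adjusted p = 0.458 by edgeR) with 6 of 8 kidneys above all sham kidneys, and it was −0.02 in the 28d kidneys. Furin, which cleaves the TGF-beta precursor, had −0.08 and −0.06 in the 5d and 28d kidneys. Thbs1, whose product can activate latent TGF-beta, had 0.42 in the 28d against the 5d kidneys (adjusted p = 0.537 by edgeR). Its unadjusted p was not under 0.05 without the 2 sham kidneys high in adrenal markers. The sister ligand genes Tgfb2 and Tgfb3 were below the filter, with 3 to 13 and 2 to 11 counts per kidney.

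Among 16 receptor and SMAD genes, all tested, Skil, which encodes a SMAD corepressor that TGF-beta induces, had higher estimates at both times, 0.39 on the log2 scale in the 5d kidneys (adjusted p = 0.431) and 0.42 in the 28d kidneys (adjusted p = 0.361) by edgeR. Of these kidneys 5 of 8 and 4 of 6 were above all sham kidneys. Eng, the endothelial coreceptor endoglin, had −0.29 in the 5d kidneys (adjusted p = 0.549) and 0.07 in the 28d kidneys. In the 28d kidneys the type I receptor gene Tgfbr1 had 0.20 (adjusted p = 0.521) and Smad3, a signal transducer, −0.35 (adjusted p = 0.531). Without the 2 sham kidneys high in adrenal markers, Eng at 5d and Tgfbr1 at 28d no longer had an unadjusted p under 0.05. Pmepa1, a feedback inhibitor, had 0.17 and 0.02 at 5d and 28d, with all 8 5d kidneys above the sham mean.

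Of 15 tested TGF-beta target genes, 11 had a lower estimate than sham in the 5d kidneys and 12 a higher one in the 28d kidneys (10 without TMM factors), with medians of −0.03 and 0.23 on the log2 scale. Id1, Id2 and Id3, inhibitors of helix-loop-helix factors that BMP signals also induce, were higher in the 28d kidneys at an unadjusted p under 0.05. Id3 had 59.4 to 103 CPM (median 71.6) in sham kidneys and 104 to 148 CPM (median 117) in 28d kidneys. For Id1 and for Id2, 5 of 6 28d kidneys were above all sham kidneys. Since these genes are named for their unadjusted p, such positions are not separate evidence, and their share over all genes was not counted. The log2 fold changes were 0.86 for Id1 (adjusted p = 0.317), 0.55 for Id2 (adjusted p = 0.267) and 0.68 for Id3 (adjusted p = 0.231) by edgeR, whereas DESeq2 called Id2 and Id3.

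Junb, a target gene that is also in the immediate early list, was called between the times. It had 83.2 to 186 CPM (median 157) in sham kidneys, 17.5 to 103.6 CPM (median 52.2) in 5d kidneys and 103.8 to 344 CPM (median 176) in 28d kidneys. No 28d kidney overlapped the 5d kidneys, and 7 of 8 5d kidneys lay below all sham kidneys. The log2 fold change of the 28d against the 5d kidneys was 1.95 (SE 0.32, adjusted p = 0.00617 by edgeR), and that of the 5d kidneys against sham −1.52 (adjusted p = 0.098 by edgeR, called by DESeq2). Ccn2, the connective tissue growth factor gene, had −0.02 and 0.38 (adjusted p = 0.656 by edgeR at 28d), and Smad7 0.27 between the times (adjusted p = 0.532 by edgeR).

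**Figure D4:**
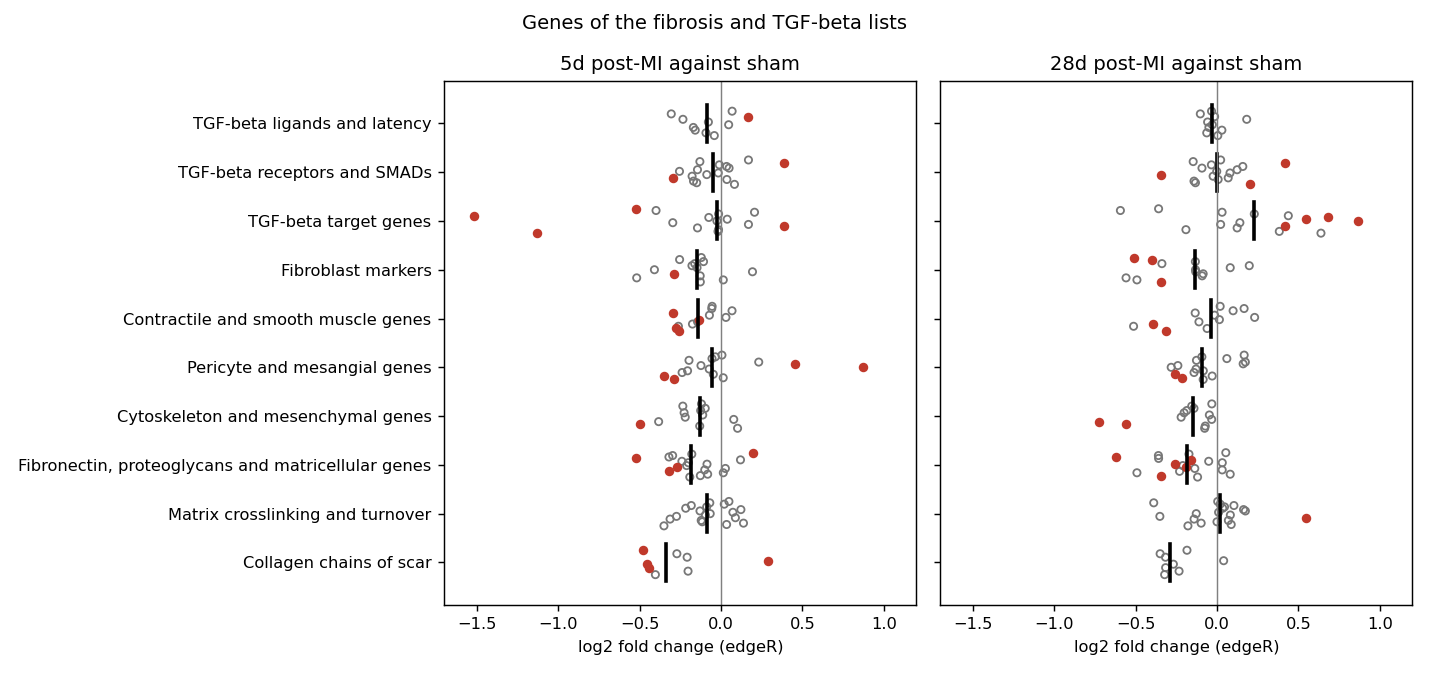
Log2 fold change against sham (x axis, edgeR) of every tested gene of 10 lists (y axis), members included, in the 5d and 28d kidneys; red points have an unadjusted p under 0.05, open points do not, and the black bars are list medians. Medians lie between −0.34 and −0.03 in the 5d kidneys; in the 28d kidneys that of TGF-beta target genes is 0.23 and that of collagen chains −0.29.

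Fibroblast markers, Dcn and Pdgfrb included, had a median log2 fold change of −0.15 in the 5d kidneys and −0.13 in the 28d kidneys over 13 tested of 20 listed genes, with 11 of 13 lower than sham at each time. In the 28d kidneys Pi16, a marker of adventitial fibroblasts, had −0.40 (adjusted p = 0.521) and S100a4, a calcium-binding protein gene, −0.51 (adjusted p = 0.520) by edgeR. The list median at 28d was −0.07 without the 2 sham kidneys high in adrenal markers and −0.10 with the adipocyte score as a covariate. In both fits 11 of 13 stayed lower, and with the adipocyte score 0 of 13 had an unadjusted p under 0.05. Nt5e, which encodes the ecto-nucleotidase of cortical fibroblasts, had −0.18 and 0.20 at 5d and 28d. Fap and Gli1, which mark activated fibroblasts and perivascular progenitors, had 0 to 6 and 0 to 2 counts per kidney and were not tested.

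Of 12 tested contractile genes, Acta2 included, 10 had a lower estimate than sham in the 5d kidneys. On the log2 scale Tagln, the gene of transgelin, had −0.28 (adjusted p = 0.549), Des, the gene of desmin, −0.29 (adjusted p = 0.583) and Mylk, the myosin light chain kinase, −0.14 (adjusted p = 0.554), all by edgeR, and Des did not keep an unadjusted p under 0.05 without the 2 sham kidneys high in adrenal markers. With the immediate early score as a covariate, 4 of 12 had a lower estimate in the 5d kidneys. There 0 had an unadjusted p under 0.05, beside 539 of all 12780 genes tested. In the 28d kidneys Tagln had −0.06, Mylk 0.01 and Myh11, the smooth muscle myosin gene, −0.39 (adjusted p = 0.540 by edgeR), and 7 of 12 had a lower estimate (9 without TMM factors). Myl9 had −0.14 and −0.11 at 5d and 28d.

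Pericyte and mesangial genes, of which Pdgfrb is 1 of 15, were led in size by Ren1, the renin gene of juxtaglomerular cells. Ren1 had 80.0 to 187 CPM (median 140) in sham kidneys, 177 to 420 CPM (median 241) in 5d kidneys and 89.7 to 150 CPM (median 115) in 28d kidneys. It was lower in the 28d than in the 5d kidneys by 1.15 on the log2 scale (SE 0.20, adjusted p = 0.00886 by edgeR), with all 6 28d kidneys below all 5d kidneys. With the immediate early score as a covariate the difference was −1.21 and was not called (adjusted p = 0.407 by edgeR), in a fit that called 0 of 12780 genes. In the 5d kidneys it had 0.87 against sham, with 7 of 8 above all sham kidneys, which DESeq2 called and edgeR did not. Notch3, a receptor of mural cells, had −0.35 in the 5d kidneys (adjusted p = 0.501) and Kcnj8, a potassium channel gene of pericytes, 0.45 (adjusted p = 0.498) by edgeR; without the 2 sham kidneys high in adrenal markers the unadjusted p of Notch3 was not under 0.05. Rgs5, a regulator of G protein signalling in pericytes, had −0.22 in the 28d kidneys (adjusted p = 0.492) and Cspg4, which encodes the proteoglycan NG2, −0.26 (adjusted p = 0.545). Gata3 had −0.07 and −0.13 at 5d and 28d.

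Among cytoskeletal and mesenchymal genes, all 12 tested, Vim included, had a lower estimate than sham in the 28d kidneys, with a median of −0.15, and 10 of 12 in the 5d kidneys. At 28d 11 of 12 were lower without the 2 sham kidneys high in adrenal markers, and 11 of 12 with the adipocyte score (median −0.09 in each). With the adrenal score as a covariate 10 of 12 were lower at 28d (median −0.11). Cdh11, a cadherin of mesenchymal cells, had −0.50 in the 5d kidneys (adjusted p = 0.458) and −0.56 in the 28d kidneys (adjusted p = 0.398) by edgeR. S100a6, another calcium-binding protein gene, had −0.72 in the 28d kidneys (adjusted p = 0.490 by edgeR). Tmsb4x, a thymosin gene, had −0.10 and −0.14, and the galectin gene Lgals1 −0.22 and −0.22, at 5d and 28d.

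Of 18 tested genes of fibronectin, proteoglycans and matricellular proteins, Fn1 and Dcn included, 14 had a lower estimate than sham at each time. Hspg2, which encodes the basement membrane proteoglycan perlecan, had 56.0 to 71.1 CPM in sham kidneys, 50.2 to 64.3 CPM in 5d kidneys and 51.4 to 63.1 CPM in 28d kidneys. Each kidney after MI was under the sham mean for Hspg2, and 6 of 8 5d kidneys were under all sham kidneys, with log2 fold changes of −0.27 (adjusted p = 0.119) and −0.19 (adjusted p = 0.401) by edgeR. In the 5d kidneys Postn, the gene of periostin, had −0.52 (adjusted p = 0.617), the fibromodulin gene Fmod −0.32 (adjusted p = 0.622) and the matrix Gla protein gene Mgp 0.19 (adjusted p = 0.633), none of which had an unadjusted p under 0.05 without the 2 sham kidneys high in adrenal markers. The elastin gene Eln had in the 28d kidneys −0.62 (adjusted p = 0.327), Sparcl1 −0.26 (adjusted p = 0.539) and the osteopontin gene Spp1 −0.16 (adjusted p = 0.530). Spp1 had 441 to 578 CPM in 28d kidneys and 578 to 750 CPM in 5d kidneys and was called between the times by DESeq2 only (edgeR adjusted p = 0.0713). Sparc, the osteonectin gene, had −0.21 at both times, and the biglycan gene Bgn 0.16 between them (adjusted p = 0.519 by edgeR).

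Of the 10 lists of signalling, mesenchymal and matrix genes, the collagen chains of scar tissue had the lowest medians, −0.34 in the 5d kidneys and −0.29 in the 28d kidneys, with 7 of 8 lower than sham at each time. In the 5d kidneys Col6a3 had −0.48 (adjusted p = 0.431), Col5a1 −0.45 (adjusted p = 0.522) and Col3a1 −0.44 (adjusted p = 0.590), whereas Col5a2 had 0.29 (adjusted p = 0.587), all by edgeR. Without the 2 sham kidneys high in adrenal markers Col6a3 alone of these had an unadjusted p under 0.05, and the list median at 5d was −0.29. Col1a1 had −0.40 and −0.32, and Col1a2 −0.20 and −0.23, at 5d and 28d, each with an unadjusted p above 0.05. With the adipocyte score as a covariate the list median was −0.21 at 5d and −0.14 at 28d.

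Genes of matrix crosslinking and turnover, Lox and Timp1 among them, had medians of −0.09 and 0.02 over 19 tested of 26. Adamts1, a protease that cleaves proteoglycans, had 19.8 to 33.9 CPM in sham kidneys, 19.8 to 32.8 CPM in 5d kidneys and 24.9 to 41.2 CPM in 28d kidneys, of which 4 of 6 were above all sham kidneys. Its log2 fold change was 0.09 in the 5d kidneys and 0.55 in the 28d kidneys (SE 0.12, adjusted p = 0.0721 by edgeR). Between the times Adamts1 had 0.46 (adjusted p = 0.0713), and the collagen-processing genes P4ha1, Serpinh1 and Plod1 had 0.30, 0.25 and 0.18 (adjusted p = 0.200, 0.528 and 0.537) by edgeR. Plod1 did not keep an unadjusted p under 0.05 without the 2 sham kidneys high in adrenal markers. Plau, the urokinase gene, had 0.05 and 0.0039, and Timp3 −0.12 and 0.07, at 5d and 28d. Mmp3 and Mmp9 had 0 to 3 and 0 to 5 counts per kidney, and Mmp2 was listed at 0 in all 22 kidneys.

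Among markers of other cells, macrophage and leukocyte genes summed to 121 to 165 CPM in sham kidneys, 95.9 to 138 CPM in 5d kidneys and 112 to 155 CPM in 28d kidneys. They were lower in 5d than in sham kidneys (exact permutation p = 0.00637, adjusted p = 0.0319 over 30 tests). Podocyte markers were higher in 5d kidneys, 174 to 250 CPM against 151 to 188 CPM (exact permutation p = 0.00140, adjusted p = 0.00839). Erythrocyte genes were also higher there, 4963 to 19000 CPM against 2203 to 4113 CPM (exact permutation p = 0.000155, the smallest these groups allow, adjusted p = 0.00233). Tubular injury markers had 293 to 330 CPM in sham, 263 to 370 CPM in 5d and 276 to 326 CPM in 28d kidneys (exact permutation p = 0.988 and p = 0.222 against sham). These lists were not used as covariates, and with group means removed no member passed an adjusted p under 0.05 in its correlation with any of them.

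Among the mice of a group the members were not shown to move together. Of 28 pairs of the 8 tested members, 0 passed an adjusted p under 0.05 with group means removed over 22 kidneys. The highest Pearson r was that of Fn1 with Vim (r = 0.462, permutation p = 0.0325, adjusted p = 0.347), with Spearman rho = 0.582 (permutation p = 0.00777, adjusted p = 0.218) and r = 0.584 without the 2 farthest kidneys. For Acta2 and Dcn r was −0.108 (permutation p = 0.674, adjusted p = 0.935) and rho −0.0548 (permutation p = 0.815, adjusted p = 0.950), with r = −0.121 without the 2 farthest kidneys. Of 80 relations of a member with a marker list 1 passed by rank, that of Lox with endothelial markers (rho = 0.738, permutation p = 0.00017, adjusted p = 0.0136), while its Pearson r was 0.532 (permutation adjusted p = 0.223) and 0.427 without the 2 farthest kidneys.

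The genes whose levels were most like each member's, with group means removed, were searched among 9289 genes of at least 10 CPM on average over 22 kidneys, as a description with no test by Pearson r. For Fn1 the most alike was Col3a1, a collagen chain gene of interstitial matrix, with r = 0.773, followed by Vps37a (0.711) and Wdr20 (0.705). For Dcn they were Slc36a2 (0.783), Hp, the haptoglobin gene (0.782), and Ipo9 (0.747), and for Lox AI661453 (0.744), Pecam1, the endothelial adhesion gene (0.733), and Mapk1ip1 (0.727). For Acta2 they were Tmem87b (0.777), Mblac2 (0.687) and Pign (0.676), and for Pdgfrb Pus10 (0.768), Znrf3 (0.744) and Chtop (0.717). For Vim they were Prdm4 (0.763), Slc25a4 (0.745) and Hbegf (0.731), for Tgfbr2 Phf7 (0.775), Fyco1 (0.774) and Slc20a2 (0.739), and for Tgfb1 Ganc (0.761), ENSMUSG00000121353 (0.681) and Atg2a (0.673).

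In GENCODE M21 on GRCm38 all 9 members are protein-coding genes. Tgfb1 lies at chr7:25687002-25705077, Tgfbr2 at chr9:116084293-116175360, Acta2 at chr19:34241090-34255590, Vim at chr2:13573927-13582826, Fn1 at chr1:71585520-71653200 and Dcn at chr10:97479609-97518143. Pdgfrb lies at chr18:61045150-61085061, Lox at chr18:52516067-52529867 and Timp1 at chrX:20870166-20874735. Fn1 overlaps Apol7d, Timp1 overlaps Syn1 and Lox overlaps AC161119.1, each on the other strand, and since the strand setting of the counting was not given in the sources used here, reads of such partners cannot be told apart.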

How the data were processed

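The labels list kidneys of 8 sham mice, 9 mice at 5d and 7 at 28d post-MI. MACE libraries carry unique molecular identifiers. After trimming with cutadapt and mapping, the authors used HTSeq to count reads on genes, and the deposited counts of 56941 genes are whole numbers with no normalization. Their text names mm10, whereas the submitters' processing notes name mm39 and Bowtie2. The annotation and strand setting were not given in the sources used here, and 51948 identifiers are in GENCODE M21. Of 48 value columns, the 22 count columns that match a single sample were used. Another 4 columns share names and were not assigned, so 1 kidney at each time post-MI was left out, and 24 deposited tpm columns were not used.

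Counts were filtered by filterByExpr (minimum 10, 12780 of 30116 genes with a count), normalized by TMM and fitted with 3 groups by edgeR 4.0.16 in R 4.3.3 (glmQLFit robust, glmQLFTest, two-sided, Benjamini-Hochberg over all genes tested). DESeq2 1.42.0 and limma 3.58.1 voom were alternatives. CPM are counts scaled to the total times the TMM factor. Fits were tested on simulated counts. Python 3.11.15 with scipy 1.17.1 gave the permutation tests, and correlations used residuals of log2 CPM (prior count 2) from group means.

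Each kidney is from a separate mouse. Total counts ranged from 2280618 to 3786275. In 71 comparisons of kidneys of the same group, the chi-squared statistic divided by its degrees of freedom was 1.77 to 8.10, so no library appeared to be present again. The members and gene lists were chosen with earlier results of these data known, and the correlations of members with marker scores were added after seeing the data. Named are all members, list genes called or with an unadjusted p under 0.05, the 2 most abundant genes of each list, the 3 genes most like each member, and a few genes below the filter, which were chosen after their values were seen. A listed gene that this rule would name is not reported here.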

Additional observations from a re-analysis of the deposited data

Results flagged for a closer look

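Among 57 groups of kidneys examined for a single value far from the rest, 5 held one, and chance alone gives about 1 in 20. For Timp1, sham replicate 3 had 2.63 CPM, from 6 counts, while the other sham kidneys had 0.274 to 1.34 CPM. For Dcn, replicate 2 at 28d post-MI had 85.0 CPM while the other 5 kidneys had 61.9 to 70.4 CPM, and it is the 1 late kidney within the sham range. Summed adrenal cortex markers were 84.6 CPM in replicate 5 at 5d post-MI, against 1.26 to 4.23 CPM in the rest of its group. Summed urothelium markers were 147 CPM in replicate 7 at 5d post-MI, against 12.0 to 64.0 CPM, and that kidney had the lowest Pdgfrb of its group and the highest Vim, Acta2 and Dcn. Erythrocyte genes summed to 2203 CPM in sham replicate 4, against 3276 to 4113 CPM in the other sham kidneys.

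The levels of 2 of the listed genes differed between the times by edgeR's test of 28d against 5d post-MI. No sham kidneys were taken at 28d, so that a difference in the effect of MI, the time since surgery and age cannot be told apart. Ren1 had a log2 fold change of −1.15 between the times (adjusted p = 0.00886, lower in 6 of 6 kidneys than in every kidney at 5d post-MI). Junb had 1.95 (adjusted p = 0.00617, higher in 6 of 6).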

How the results depend on the processing

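The count of 0 called members held in all 3 comparisons under every alternative but 1. Without the filter on low counts 2 members were called in 28d against sham kidneys, Acta2 (adjusted p = 0.0408 by edgeR) and Dcn (adjusted p = 0.0464), when 30116 genes were tested and 94 called in place of 3. DESeq2 called 35, 30 and 93 genes in 5d against sham, 28d against sham and 28d against 5d, in place of 9, 3 and 53, and 0 members. In 28d against sham it gave no adjusted p for Tgfb1, Pdgfrb, Vim, Fn1 and Lox. The replicate numbers did not pair the kidneys. Over 7, 6 and 5 pairs in that order, deviations of kidneys with the same number correlated at a mean r of 0.0062, −0.0080 and 0.020, and 0 pairs were over 0.1. With the replicate block 0 members were called in each comparison, and 2, 24 and 80 of all genes.

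Signs turned for small estimates. With the immediate early score as a covariate the log2 fold change of 5d against sham kidneys became 0.072 for Tgfb1, 0.025 for Fn1 and 0.080 for Acta2. Between the times it became −0.10 for Tgfb1, −0.13 for Tgfbr2, −0.21 for Fn1, −0.25 for Lox and −0.10 for Junb, which is part of that score, and in 28d against sham −0.12 for Junb. In 28d against sham kidneys Tgfb1 became −0.034 without TMM, −0.020 with limma voom, −0.062, −0.077 and −0.033 with the adipocyte, adrenal and immediate early scores, and −0.053 without the 2 sham kidneys high in adrenal markers. With the adipocyte score Vim became 0.044 in 28d and Dcn 0.015 in 5d kidneys. Between the times Tgfbr2 became −0.012 without TMM and −0.061 with the replicate block, and Lox −0.031 with the replicate block. The cause was not tested.

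Leaving out each kidney in turn, the log2 fold change of Tgfb1 was −0.11 to 0.029 in 5d and −0.10 to 0.14 in 28d against sham, and −0.061 to 0.18 between the times. Between the times that of Tgfbr2 was −0.031 to 0.075, of Fn1 −0.0065 to 0.13 and of Lox −0.17 to 0.38, and in 28d against sham that of Pdgfrb was −0.17 to 0.021 and of Lox −0.52 to 0.036. The unadjusted p stayed under 0.05 in 22 of 22 such fits for Pdgfrb at 5d and for Acta2 and Dcn at 28d, and in 21 of 22 for Acta2 at 5d, all but the fit without sham replicate 7. Depth limits Lox and Timp1 most.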
